A study of Homo sapiens with 36 samples.

Results

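IL6 and 9 other cytokine genes of the secretory phenotype were followed across 3 human melanoma cell lines in which the nuclear receptor NR2F1 could be switched on. The genes were IL6, LIF and IL11 (ligands of the interleukin-6 family), IL1A and IL1B (interleukin-1), CXCL8, CXCL1, CXCL2 and CXCL3 (CXC chemokines) and CCL2 (a CC chemokine). They were chosen by name, as 10 of the 60656 genes in the files, and were found by matching Ensembl gene IDs without their version to GENCODE symbols. All 10 were found, and all 10 passed the filter on low values in every line.

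Bulk RNA-Seq was done in 3 lines, A375TR-NR2F1 (A375 here), 1205LuTR-NR2F1 (1205Lu) and WM793TR-NR2F1 (WM793). These are BRAF-mutant melanoma lines that all carry the Tet repressor (TR) and an NR2F1 cDNA under doxycycline (DOX) control. Every line was grown in 4 groups, DMSO, DMSO + DOX, BRAFi + MEKi and BRAFi + MEKi + DOX, with 3 replicate libraries per group, which gives 12 groups and 36 libraries. BRAFi was PLX4720 at 1 uM, MEKi was PD0325901 at 35 nM, and DOX was used at 100 ng/mL. Cells had 24 hours with or without DOX and then 72 hours of treatment. The paper's methods mention DOX in those 24 hours without setting any group apart, so that whether the groups without DOX were free of it throughout is not settled by the sources. No library received DOX in cells without the NR2F1 cDNA, so the effects of DOX and of NR2F1 cannot be told apart. 1205Lu and WM793 were grown in a medium with low serum and insulin and A375 in DMEM with a higher serum content, so line and medium cannot be told apart either.

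A cell that has stopped dividing or is under stress can secrete a set of inflammatory proteins known as the senescence-associated secretory phenotype, of which IL-6 and IL-8 (the product of CXCL8) are the best known. Transcription of these genes is driven mainly by NF-kB, AP-1 and C/EBP factors, and AP-1 activity in turn depends on the ERK pathway that BRAFi + MEKi block. Interleukin-1 alpha, when bound to its receptor, activates NF-kB and so maintains the other cytokines. In melanoma, the CXC chemokines CXCL1, CXCL2, CXCL3 and CXCL8 bind the receptor CXCR2 and act on neutrophils and on the tumor cells themselves, CCL2 attracts monocytes through CCR2, and IL-6 signals through the shared receptor chain gp130 (IL6ST) to JAK kinases and STAT3.

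The proximal promoters of the members show what they have in common at the sequence level. RefSeq promoters on GRCh38.p14, each with 250 bases before and 50 bases from the transcription start, were on hand for 8 of the 10 genes, and LIF and CCL2 had no entry. The 160 bases before the start are printed for the CXC chemokines and IL6, which share an NF-kB motif, and for IL11, which holds an AP-1 motif. They read 5′ to 3′ on the strand of the gene. Capitals mark matches to GGNNTTTCC (NF-kB), TGANTCA (AP-1) or TTGCNNAA (C/EBP), searched on both strands. The windows are chr7:22727040-22727199 (plus strand) for IL6, chr4:73740409-73740568 (plus) for CXCL8, chr4:73869233-73869392 (plus) for CXCL1, chr4:74099196-74099355 (minus) for CXCL2, chr4:74038690-74038849 (minus) for CXCL3 and chr19:55370464-55370623 (minus) for IL11.
IL6: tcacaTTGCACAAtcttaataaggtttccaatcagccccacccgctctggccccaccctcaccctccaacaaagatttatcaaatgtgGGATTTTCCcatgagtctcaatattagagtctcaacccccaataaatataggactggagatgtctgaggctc
CXCL8: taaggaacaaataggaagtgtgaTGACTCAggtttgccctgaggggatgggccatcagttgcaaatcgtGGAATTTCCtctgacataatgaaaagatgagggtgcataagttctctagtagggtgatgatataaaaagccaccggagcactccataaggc
CXCL1: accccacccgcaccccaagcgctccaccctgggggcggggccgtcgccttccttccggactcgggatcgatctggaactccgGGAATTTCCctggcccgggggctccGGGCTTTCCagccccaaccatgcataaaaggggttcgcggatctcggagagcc
CXCL2: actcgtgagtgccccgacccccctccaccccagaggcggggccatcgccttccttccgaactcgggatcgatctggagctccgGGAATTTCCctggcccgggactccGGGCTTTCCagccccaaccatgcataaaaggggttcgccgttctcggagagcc
CXCL3: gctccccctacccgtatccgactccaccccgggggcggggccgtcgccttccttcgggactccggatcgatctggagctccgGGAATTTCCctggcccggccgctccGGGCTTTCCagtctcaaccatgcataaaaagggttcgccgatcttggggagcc
IL11: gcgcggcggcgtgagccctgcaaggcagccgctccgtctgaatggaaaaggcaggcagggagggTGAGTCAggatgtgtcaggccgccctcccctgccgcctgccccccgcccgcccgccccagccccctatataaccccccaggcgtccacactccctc

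The NF-kB letters were present in 5 of the 8 member promoters, against 6.26% of 35116 RefSeq promoters of the same length. In IL6 the match began 72 bases before the start, in CXCL8 91 bases, in CXCL1 78 and 53 bases, in CXCL2 77 and 53 bases, and in CXCL3 78 and 53 bases. The AP-1 letters were found in CXCL8 (137 bases before the start), IL11 (96 bases) and IL1A, which is 3 of 8 against 7.71% of all promoters. The C/EBP letters were found in IL6 (155 bases), CXCL2 (188 bases) and IL1B (215 bases), which is 3 of 8 against 10.5% of all promoters. The half-site AGGTCA, which COUP-TF receptors such as NR2F1 bind, occurred in 1 of the 8 member promoters, against 13.8% of all promoters. That was IL11, 241 bases before the start. No 2 of these motifs overlapped in the members. A match describes letters in this window and is neither a bound site nor a cause.

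CXCL1, CXCL2 and CXCL3, which lie with CXCL8 in a chemokine cluster on chromosome 4, are close copies of each other. Over the 160 bases before the start, CXCL1 and CXCL2 were identical at 139 positions (86.9%), CXCL1 and CXCL3 at 138 (86.2%), CXCL2 and CXCL3 at 134 (83.8%), and CXCL1 and the more distant CXCL8 at 76 (47.5%). The likeness extends into the transcripts. Of the 50-base windows of their GENCODE transcripts, 4.57% of CXCL1, 13.4% of CXCL2 and 6.01% of CXCL3 were shared with another of these genes, and 0% of CXCL8 were. Reads from shared windows were divided between the copies by an estimate, so the levels of CXCL1, CXCL2 and CXCL3 relative to each other are uncertain.

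On GRCh38 (GENCODE 44), IL6 spans chr7:22725884-22732002 on the plus strand and overlaps STEAP1B and IL6-AS1 on the other strand. LIF (chr22:30240453-30246759, minus strand) overlaps LIF-AS1 and LIF-AS2. The libraries do not mark the strand, so reads of such pairs cannot be told apart. The antisense genes were low, with IL6-AS1 at 3.92 to 39.2 in 1205Lu, at 2.89 to 28.4 in WM793 and at 0 in the 12 A375 libraries. STEAP1B was between 385 and 1746 in the 36 libraries. The other members are CXCL8 (chr4:73740519-73743716, plus), CXCL1 (chr4:73869393-73871308, plus), CXCL2 (chr4:74097040-74099196, minus), CXCL3 (chr4:74036589-74038807, minus), IL1A (chr2:112773925-112784493, minus), IL1B (chr2:112829751-112836816, minus), IL11 (chr19:55364382-55370463, minus) and CCL2 (chr17:34255274-34257208, plus).

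The values are normalized expression, one number per gene and library, which the authors scaled between libraries. They are not read counts. Their sum per library lay between 27027824 and 34621958, and the depth estimated from the commonest low value was between 6.58 and 60.5 M reads (M for mega), with a median of 29.7 M reads. The shallowest library was WM793 DMSO replicate 1, where 1 read is worth about 5.09 against 0.49 to 1.44 elsewhere. NR2F1 was between 321 and 6273 in the libraries without DOX and between 9155 and 76313 in those with DOX, so every DOX library was above every library without it. Its log2 change with DOX in DMSO was 1.93 in 1205Lu (SE 0.38, limma adjusted p 0.41), 6.39 in WM793 and 5.49 in A375. Under BRAFi + MEKi it was 3.33, 4.99 and 4.14 in these lines. DUSP6, a direct readout of ERK signaling, lay between 2661 and 7182 in the libraries without inhibitors and between 74.6 and 1693 in those with BRAFi + MEKi. Of 10 melanocytic markers, 7 had a mean of at least 30 in each line, but MLANA and TYR, which define pigmented melanocytes, were at 0 in all 1205Lu and WM793 libraries. The summed level of 10 leukocyte markers was at most 268 in any library, against a lowest sum of 19856 for the melanocytic markers. The summed level of 8 fibroblast markers was 2245 to 7757 in 1205Lu, 7901 to 13374 in WM793 and 1466 to 2360 in A375, and 2, 7 and 6 of them had a mean of at least 30. In 1205Lu that sum was 4589 to 7757 with DMSO and 2245 to 4755 with BRAFi + MEKi, and its part in the results was not tested. RNA was taken from whole cultures, so fewer cultured cells of a kind and less RNA per cell cannot be told apart.

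Replicate 1 of 1205Lu stood apart for many members in all 4 groups. CXCL8, for instance, was 60927, 64056, 5849 and 3974 in its 4 libraries, which is above replicates 2 and 3 of the same group each time. DUSP6 was lower in the inhibitor-treated libraries of that replicate (75.8 and 74.6) than in replicates 2 and 3 (275 to 710.1). In WM793, replicate 1 was the lowest of its group for CXCL8 and CXCL1 in all 4 groups and for IL1B in both inhibitor-treated groups. Each result in these lines is therefore given with all libraries and, where the call differs, also without the libraries numbered 1 or without the single library that changes it. The first alternative was added after the data had been seen, and the part of these libraries in the results was not tested further. It leaves replicates 2 and 3 in each group. Its p-values therefore measure the spread between these 2 and not their distance from replicate 1. Members that stood apart in replicate 1 are among those retested without it, so these calls are not independent support for a change.

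Expression of IL6 was higher with DOX in 1205Lu and WM793, both in DMSO and under BRAFi + MEKi, and it was also higher with BRAFi + MEKi than with DMSO in both of these lines. In A375, IL6 was near the lower limit of measurement, and no change in it passed the test. A change was called where the adjusted p of limma, Benjamini-Hochberg over all genes tested in the line, was below 0.05, and log2 changes are on the log2(value + 1) scale with their standard error (SE).

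IL6 in 1205Lu was 259.7, 242 and 261 in the DMSO libraries, in the order of replicates 1, 2 and 3. It was 2118, 1220 and 1379 with DMSO + DOX, 435, 475 and 539 with BRAFi + MEKi, and 1362, 946 and 1036 with BRAFi + MEKi + DOX. The 4 groups did not overlap except for both groups with DOX. Under DMSO the rise with DOX was 5.99-fold, a log2 change of 2.58 (SE 0.21, adjusted p 1.5e-04). It was called in all 12 fits with 1 library left out, but not without all libraries numbered 2 (2.71, adjusted p 0.099) or 3 (2.68, adjusted p 0.22). Under BRAFi + MEKi it was 2.29-fold, a log2 change of 1.19 (SE 0.21, adjusted p 0.028), and without the libraries numbered 1 it was 0.97 (adjusted p 0.0054). IL6 rose 1.89-fold from DMSO to BRAFi + MEKi (log2 change 0.92, SE 0.21, adjusted p 0.0041), with adjusted p 0.058 and 0.1 without the libraries numbered 2 or 3. The rise with DOX under BRAFi + MEKi kept its direction whichever of the 12 libraries was left out, but passed the test in 5 of these 12 fits. The call was lost, at adjusted p 0.055 to 0.12, without replicate 3 of DMSO or of DMSO + DOX, without any one of the BRAFi + MEKi libraries, or without replicate 2 or 3 of BRAFi + MEKi + DOX.

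In WM793, IL6 was 105, 124 and 134 with DMSO. It was 419, 1003 and 459 with DMSO + DOX, 1539, 1138 and 1191 with BRAFi + MEKi, and 3025, 7768 and 4728 with BRAFi + MEKi + DOX. BRAFi + MEKi libraries without DOX were above all DMSO + DOX libraries, and both DOX groups were above their control at every replicate. BRAFi + MEKi alone raised IL6 10.5-fold (log2 change 3.39, SE 0.33, adjusted p 3.9e-06). DOX raised it 4.76-fold in DMSO (log2 change 2.25, SE 0.33, adjusted p 0.012) and 3.76-fold under BRAFi + MEKi (log2 change 1.91, SE 0.33, adjusted p 0.047). The call in DMSO was kept in all 12 fits with 1 library left out and lost without all libraries numbered 2 (1.88, adjusted p 0.2) or 3 (2.49, adjusted p 0.29). Between libraries of the same number, the log2 ratio under BRAFi + MEKi was 0.97, 2.77 and 1.99. The call under BRAFi + MEKi was the most fragile, since it held in 3 of the 12 fits with 1 library left out. It was lost, at adjusted p 0.057 to 0.22, without replicate 2 or 3 of DMSO, replicate 1 or 3 of DMSO + DOX, any BRAFi + MEKi library, or replicate 2 or 3 of BRAFi + MEKi + DOX, while the log2 change stayed between 1.57 and 2.25 in all 12 fits.

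In A375, IL6 was 40.2, 14.5 and 3.94 with DMSO, 29.6, 23.2 and 3.15 with DMSO + DOX, 2.14, 7.99 and 4.5 with BRAFi + MEKi, and 42.3, 14.3 and 3.58 with BRAFi + MEKi + DOX. All 4 groups overlapped. The log2 change with DOX under BRAFi + MEKi was 1.43 (SE 0.96, 95% interval -0.63 to 3.5, adjusted p 0.68) and rested on replicate 1, where the same-number log2 ratio was 3.79 against -0.26 in replicate 3. Without the libraries numbered 1 it was 0.25. An increase as large as that in the other lines therefore lies within the interval, and so does no change. The IL6 response to BRAFi + MEKi differed between WM793 and A375 by 4.84 (SE 0.94, adjusted p 2.8e-04).

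**Figure D1:**
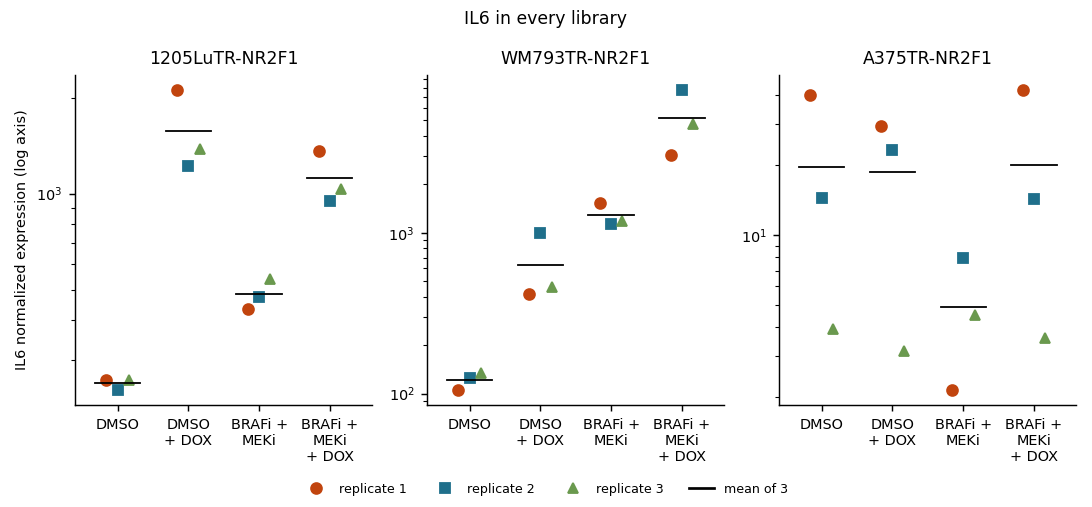
Normalized expression of IL6 in each of the 36 libraries, on a log axis that differs between the panels, by line and treatment. Points are libraries, coloured by replicate number, and the black line is the mean of 3; in 1205Lu and WM793 every library with DOX lies above its control group, and in A375 the groups overlap.

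Of the 10 members, IL6 was the only one called with DOX in 1205Lu and WM793, under either condition, in the fit of all libraries without a block. Under BRAFi + MEKi, 1 of 10 members was called in 1205Lu (0.334% of 22144 genes tested were called), 1 in WM793 (0.204% of 22074) and 1 in A375 (CXCL1, with 1.52% of 24370). In DMSO, 1 of 10 was called in 1205Lu (0.00903% of all genes, which is 2 genes) and 1 in WM793 (0.512%), while limma called 0 in A375 (0.0492%), where 2 members had an unadjusted p below 0.05 (7.95% of all genes did). At an unadjusted p below 0.05, 5, 1 and 4 members passed under BRAFi + MEKi in 1205Lu, WM793 and A375, against 9.72%, 7.95% and 10.6% of all genes. The difference between the DOX effect under BRAFi + MEKi and in DMSO was called by limma for 0 of 10 members in each line, and for 0% of all genes in 1205Lu and WM793 and 0.46% in A375. At an unadjusted p below 0.05 there were 2 members per line, against 5.72%, 5.72% and 7.25% of all genes in 1205Lu, WM793 and A375. For IL6 that difference was -1.39 in 1205Lu (SE 0.29, adjusted p 0.53; without the libraries numbered 1 -1.40, adjusted p 0.019) and -0.34 in WM793 (SE 0.47). Without the libraries numbered 1, 7 members of 1205Lu had a called difference (0.982% of all genes did), all 7 negative, namely IL6, CXCL8, CXCL1, IL1A, IL1B, LIF and CCL2. With the replicate number as a block, 2 members were called with DOX in DMSO in WM793, 1 of them higher, against 1.29% of all genes.

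BRAFi + MEKi changed 5 to 8 of the 10 members in each line. Against DMSO, 5 of 10 members were called in 1205Lu (2 higher and 3 lower, where 30.9% of all genes were called), 5 of 10 in WM793 (2 higher and 3 lower, against 37.3%) and 8 of 10 in A375 (8 lower, against 39.5%). The members' median log2 change was -1.88, -0.84 and -2.92 in 1205Lu, WM793 and A375, while the median over all genes tested was 0.11, 0.15 and 0.064. LIF and IL11 fell in every line, IL6 and CCL2 rose in 1205Lu and WM793, and the CXC chemokines and both interleukin-1 genes fell in A375, where CCL2 and IL6 were not called. The count in 1205Lu and WM793 rose to 8 and 9 without the libraries numbered 1, where 34.1% and 37.7% of all genes were called. With the replicate number as a block it was 8 in 1205Lu (35.7% of all genes) and 7 in WM793 (41.1%). The 1205Lu count fell to 3 without the libraries numbered 2 or 3, where 13.7% and 12.2% of all genes were called. Other measures moved with the inhibitors as well. Of the melanocytic markers, 5 of 8 tested rose in 1205Lu, 4 of 8 in WM793 and 6 of 9 in A375, and 0, 2 and 0 fell. Their summed level was 29042 to 36046 with DMSO and 70161 to 78792 with BRAFi + MEKi in 1205Lu, 31838 to 37288 and 50293 to 58492 in WM793, and 26014 to 29619 and 38520 to 56118 in A375. With BRAFi + MEKi + DOX it was 42040 to 98160 in 1205Lu, 38076 to 48746 in WM793 and 28182 to 38552 in A375. With DMSO + DOX it was 21414 to 30338, 32350 to 33175 and 19856 to 24390 in these lines. The share of the summed values in mitochondrial genes went up in A375, from 0.787 to 1.58% without the inhibitors to 2.06 to 2.36% with them. It went down in 1205Lu, from 1.51 to 2.14% to 1.16 to 1.41%, and overlapped in WM793 (1.59 to 2.92% and 1.26 to 1.94%). The part of these in the member changes was not tested. The comparisons with DOX and with BRAFi + MEKi share the BRAFi + MEKi or DMSO libraries of a line, so their values are not independent of each other.

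**Figure D2:**
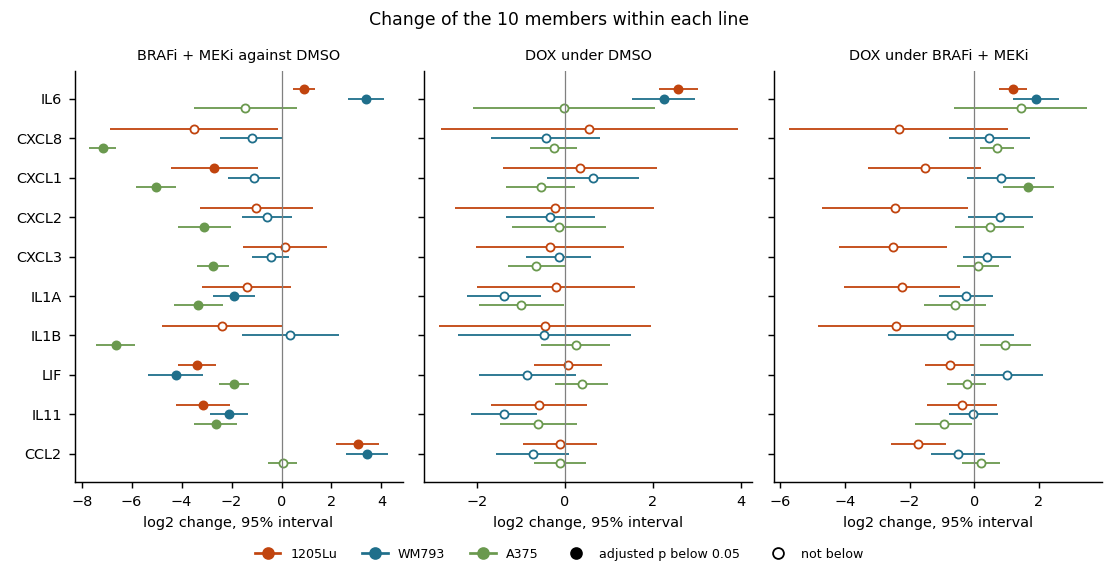
Log2 change of each member in the 3 lines for BRAFi + MEKi against DMSO, DOX in DMSO and DOX under BRAFi + MEKi, on separate axes. Points are limma estimates, bars are 95% intervals, and filled points have an adjusted p below 0.05; IL6 is the only filled point in the middle panel, in 1205Lu and WM793.

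LIF, a gp130 ligand that also binds the LIF receptor, fell with BRAFi + MEKi in all 3 lines. It was 75406, 34042 and 43748 with DMSO and 5346, 3910 and 4784 with BRAFi + MEKi in 1205Lu. In WM793 it was 22239, 25529 and 17426 against 513, 2152 and 1345, and in A375 2362, 2082 and 3677 against 946, 657 and 531. No inhibitor-treated library reached a DMSO library of its line. The fall was 10.4-fold in 1205Lu (log2 change -3.38, SE 0.36, adjusted p 1.5e-05), 18.8-fold in WM793 (-4.23, SE 0.51, adjusted p 2.4e-05) and 3.79-fold in A375 (-1.92, SE 0.28, adjusted p 9.7e-05). It was steeper in WM793 than in A375 by 2.31 on the log2 scale (SE 0.64, adjusted p 0.009; without the libraries numbered 1 the difference was -1.41, adjusted p 0.051).

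With BRAFi + MEKi + DOX, LIF was 5448, 1985 and 1934 in 1205Lu, 978, 4634 and 2706 in WM793, and 614, 788 and 426 in A375. The same-number log2 ratios were all positive in WM793 (0.93, 1.11 and 1.01), although the groups overlapped and the change of 1.01 (SE 0.51) missed the threshold. In 1205Lu they were 0.027, -0.98 and -1.31, with a log2 change of -0.75 (SE 0.36, adjusted p 0.52), and -1.14 (adjusted p 0.0028) without the libraries numbered 1. Leaving out replicate 1 of BRAFi + MEKi + DOX alone also gave a call (-1.24, adjusted p 0.026). The fit with the replicate number as a block did not. With DOX in DMSO, LIF was 14695, 11986 and 9598 in WM793, below every DMSO library, but the log2 change of -0.85 (SE 0.51, adjusted p 0.63) was not called.

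IL11, a gp130 ligand linked to fibrosis and bone turnover, likewise fell with BRAFi + MEKi in every line. DMSO libraries of 1205Lu were at 1724, 448 and 374 and BRAFi + MEKi libraries at 92.7, 75.2 and 57.1. The same groups were at 762, 572 and 495 against 115, 208 and 112 in WM793, and at 162, 157 and 416 against 24.7, 43.7 and 37.8 in A375. The groups did not overlap in any line. The fall was 8.88-fold in 1205Lu (log2 change -3.15, SE 0.51, adjusted p 4.1e-04), 4.30-fold in WM793 (-2.10, SE 0.35, adjusted p 3.3e-04) and 6.22-fold in A375 (-2.64, SE 0.41, adjusted p 1.6e-04). No pair of lines differed in this response at the threshold. With DMSO + DOX, IL11 was 381, 211 and 154 in WM793, below every DMSO library, with a log2 change of -1.37 (SE 0.35, adjusted p 0.13). With BRAFi + MEKi + DOX it was 24.7, 15.2 and 13.9 in A375, also below each control library, with a log2 change of -0.95 (SE 0.41, adjusted p 0.42).

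IL1A, which encodes interleukin-1 alpha, fell with BRAFi + MEKi in WM793 and A375. It was 17937, 33386 and 26311 with DMSO and 4779, 8033 and 7575 with BRAFi + MEKi in WM793, a 3.78-fold fall (log2 change -1.92, SE 0.39, adjusted p 0.0016). In A375 it was 1711, 1707 and 1331 against 241, 276 and 56.6, a 10.0-fold fall (log2 change -3.33, SE 0.45, adjusted p 5.5e-05). In 1205Lu the DMSO libraries were at 4963, 5989 and 6450 and the BRAFi + MEKi libraries at 4661, 1465 and 1537. The BRAFi + MEKi library of replicate 1 was close to the DMSO group while replicates 2 and 3 were far below it, so that the log2 change of -1.40 (SE 0.83, adjusted p 0.23) was not called with all libraries and was -2.05 (adjusted p 3.4e-06) without the libraries numbered 1. It was also called when replicate 1 of BRAFi + MEKi + DOX, which is in neither group, was left out of the fit (adjusted p 0.0063).

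The DOX libraries were below their controls for IL1A in several settings without a call in the fit of all libraries. With BRAFi + MEKi + DOX, 1205Lu was at 3365, 165 and 179, a same-number log2 ratio of -0.47, -3.14 and -3.09. Replicates 2 and 3 were thus far below their BRAFi + MEKi partners and replicate 1 was not. The log2 change was -2.24 (SE 0.83, adjusted p 0.36), and -3.12 (adjusted p 3.4e-06) without the libraries numbered 1 or -3.66 (adjusted p 6.1e-04) without replicate 1 of BRAFi + MEKi + DOX alone. The latter also gave a call for the difference from the DOX effect in DMSO (-3.46, adjusted p 0.019). With the replicate number as a block, neither was called. With DMSO + DOX, WM793 was at 6729, 12171 and 10624, every value under the lowest DMSO library, with a log2 change of -1.39 (SE 0.39, adjusted p 0.19), and -1.38 (adjusted p 0.0098) without the libraries numbered 1. This change was called as well without replicate 1 of BRAFi + MEKi + DOX in the fit (adjusted p 0.047). A375 was at 1100, 793 and 566 with DMSO + DOX, also below all DMSO libraries, with a log2 change of -0.99 (SE 0.45, adjusted p 0.62). Its BRAFi + MEKi + DOX libraries were at 105, 124 and 82.2, with a log2 change of -0.60 (SE 0.45, adjusted p 0.72) from BRAFi + MEKi, and -1.33 (adjusted p 0.015) without the low replicate 3 of BRAFi + MEKi.

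IL1B, which encodes the interleukin-1 beta precursor that caspase-1 processes, was the member whose level differed most between the lines. With DMSO it was 194312, 115159 and 98968 in 1205Lu, 698, 637 and 423 in WM793, and 1668, 1598 and 1876 in A375. The lowest 1205Lu library was above the highest library of either other line. In DMSO, 1205Lu exceeded WM793 by a log2 difference of 7.83 (SE 1.01, adjusted p 2.7e-07) and A375 by 6.25 (SE 1.01, adjusted p 5.4e-06).

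Under BRAFi + MEKi, IL1B was 87815, 14193 and 12862 in 1205Lu, 171, 1662 and 1386 in WM793, and 20.2, 30.1 and 6.66 in A375. Only A375 showed a called change, a 99.7-fold fall (log2 change -6.64, SE 0.37, adjusted p 2.2e-08). In 1205Lu every library was below the DMSO group, with a log2 change of -2.37 (SE 1.12, adjusted p 0.13), and -2.98 (adjusted p 5.7e-07) without the libraries numbered 1 (adjusted p 0.008 without replicate 1 of BRAFi + MEKi + DOX alone). WM793 was split by replicate, with log2 ratios of -2.02, 1.38 and 1.71, and its log2 change was 0.36 (SE 0.91) with all libraries and 1.55 (adjusted p 0.0012) without the libraries numbered 1. With BRAFi + MEKi + DOX, IL1B was 57340, 1384 and 1352 in 1205Lu, with same-number log2 ratios of -0.61, -3.36 and -3.25. The log2 change there was -2.41 (SE 1.12, adjusted p 0.51), and -3.30 (adjusted p 3.4e-06) without the libraries numbered 1 or -4.2 (adjusted p 0.006) without replicate 1 of BRAFi + MEKi + DOX alone. With the replicate number as a block it was not called. In WM793 and A375, IL1B with BRAFi + MEKi + DOX lay between 78.7 and 1213 and between 28.9 and 37.3, overlapping BRAFi + MEKi in both lines.

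CXCL8, which encodes IL-8, had the largest response to the inhibitors among the members of A375. It was 11570, 10362 and 9154 with DMSO and 83.9, 68.7 and 62.7 with BRAFi + MEKi, a 143-fold fall (log2 change -7.16, SE 0.25, adjusted p 8.8e-10). Adding DOX to BRAFi + MEKi gave 124, 112 and 114, above every BRAFi + MEKi library but still far below DMSO. That log2 change of 0.70 (SE 0.25, adjusted p 0.27) was not called, except when replicate 3 of DMSO + DOX, which is in neither group, was left out of the fit (adjusted p 0.017). In WM793, CXCL8 was 42709, 141154 and 129501 with DMSO and 20249, 55975 and 56554 with BRAFi + MEKi, with same-number log2 ratios of -1.08, -1.33 and -1.20 but overlapping groups. The log2 change was -1.20 (SE 0.58, adjusted p 0.12), and -1.26 (adjusted p 1.2e-04) without the libraries numbered 1 or -1.76 (adjusted p 0.031) without DMSO replicate 1 alone.

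In 1205Lu, CXCL8 was 60927, 5343 and 5025 with DMSO, 64056, 9410 and 8603 with DMSO + DOX, 5849, 430 and 446 with BRAFi + MEKi, and 3974, 49.0 and 42.3 with BRAFi + MEKi + DOX. Between the same-numbered libraries the ratio of BRAFi + MEKi to DMSO was even, at log2 -3.38, -3.63 and -3.49. The change with all libraries was -3.50 (SE 1.57, adjusted p 0.11) and, without the libraries numbered 1, -3.56 (adjusted p 5.7e-07). It was called at adjusted p 0.029 when only replicate 1 of BRAFi + MEKi + DOX was left out. DOX under BRAFi + MEKi gave -0.56, -3.11 and -3.37, so that replicates 2 and 3 were far lower and replicate 1 much less so. The fit of all libraries gave -2.34 (SE 1.57, adjusted p 0.71), and without the libraries numbered 1 the change was -3.24 (adjusted p 7.9e-06). With the replicate number as a block it was not called.

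CXCL1, a growth-regulated chemokine first found in melanoma cells, fell with BRAFi + MEKi in 1205Lu and A375. In 1205Lu it was 6336, 2060 and 1198 with DMSO and 826, 273 and 258 with BRAFi + MEKi, a 6.44-fold fall (log2 change -2.69, SE 0.82, adjusted p 0.023). The call was lost, at adjusted p 0.08 to 0.1, when replicate 1 of DMSO or replicate 2 or 3 of BRAFi + MEKi was left out. In A375 it was 2645, 1913 and 1152 against 51.9, 48.1 and 63.9, a 32.6-fold fall (log2 change -5.03, SE 0.37, adjusted p 2.2e-07). In the BRAFi + MEKi + DOX libraries of A375 it was 133, 208 and 193, above all BRAFi + MEKi libraries, and this 3.18-fold rise was called (log2 change 1.67, SE 0.37, adjusted p 0.035). It was called in 7 of the 12 fits with 1 library left out. The call was lost, at adjusted p 0.062 to 0.17, without DMSO replicate 2, replicate 1 or 2 of BRAFi + MEKi, or replicate 2 or 3 of BRAFi + MEKi + DOX. Without all 4 libraries numbered 1 the log2 change was 1.84 (adjusted p 0.28).

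In WM793, CXCL1 was 6664, 18134 and 25515 with DMSO and 3844, 7849 and 10365 with BRAFi + MEKi, with a log2 change of -1.10 (SE 0.49, adjusted p 0.094), or -1.66 (adjusted p 0.011) without DMSO replicate 1 and -1.25 (adjusted p 0.0011) without the libraries numbered 1. Its libraries with BRAFi + MEKi + DOX were at 6331, 15000 and 18210, each above the BRAFi + MEKi library of its number while the groups overlapped. That log2 change of 0.82 (SE 0.49) missed the threshold. In 1205Lu the direction was the opposite, with 486, 56.4 and 85.5 after BRAFi + MEKi + DOX, all 3 below their same-numbered BRAFi + MEKi library.

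CXCL2 and CXCL3, the close copies of CXCL1, fell with BRAFi + MEKi in A375 as CXCL1 did. In A375, CXCL2 fell from 143, 94.8 and 64.5 with DMSO to 7.30, 12.4 and 12.1 with BRAFi + MEKi (log2 change -3.09, SE 0.50, adjusted p 2.3e-04). CXCL3 fell there from 177, 125 and 128 to 15.3, 23.3 and 23.2 (log2 change -2.74, SE 0.30, adjusted p 8.4e-06). Neither was called with BRAFi + MEKi in the other lines. In WM793, CXCL2 was 84.4, 219.9 and 358 with DMSO and 127, 118 and 133 with BRAFi + MEKi, and CXCL3 was 125, 195 and 287 against 100.2, 164 and 169. The change of CXCL2 there was -0.58 (SE 0.47), and it was called without DMSO replicate 1 (-1.15, adjusted p 0.038) and without the libraries numbered 1 (-1.16, adjusted p 0.009). In 1205Lu, CXCL3 was 125, 103 and 47.9 with DMSO and 178, 61.8 and 74.9 with BRAFi + MEKi, a log2 change of 0.14 (SE 0.78). The response of CXCL3 differed from that of A375 by 2.88 in 1205Lu (SE 0.81, adjusted p 0.015) and by 2.30 in WM793 (SE 0.81, adjusted p 0.039).

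Under BRAFi + MEKi, all 4 CXC chemokines of 1205Lu were lower with DOX in every same-numbered pair. For CXCL2 the values went from 259, 59.5 and 62.0 to 82.0, 8.90 and 6.29, and the ratios were -1.65, -2.61 and -3.11 on the log2 scale. CXCL3 was 64.0, 12.3 and 4.39 with DOX, with ratios of -1.46, -2.24 and -3.81, and for CXCL1 the ratios were -0.77, -2.25 and -1.58. The groups overlapped for all 4 genes because replicate 1 was high in both. In the fit of all libraries the changes of -2.46 for CXCL2 (SE 1.05, adjusted p 0.46), -2.51 for CXCL3 (SE 0.78, adjusted p 0.24) and -1.53 for CXCL1 (SE 0.82, adjusted p 0.59) were not called. With the replicate number as a block they were, at adjusted p 0.0032, 0.020 and 0.012. CXCL3 was also called without replicate 1 of BRAFi + MEKi + DOX alone (-3.49, adjusted p 0.015). Of the 10 members, 5 were called with the block against 1 without it (IL6 higher, and CXCL1, CXCL2, CXCL3 and CCL2 lower), while the share of all genes called went from 0.334% to 1.64%. Without the libraries numbered 1, 9 were called, 1 higher and 8 lower, and IL11 was the exception. In that setting 6.47% of all genes were called. Of these members, CXCL8, IL1A, IL1B and LIF were not called with the block. Without the libraries numbered 2 or 3 no member was called, with 0% and 0.00445% of all genes. In WM793 the block changed no member's call in this comparison.

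**Figure D3:**
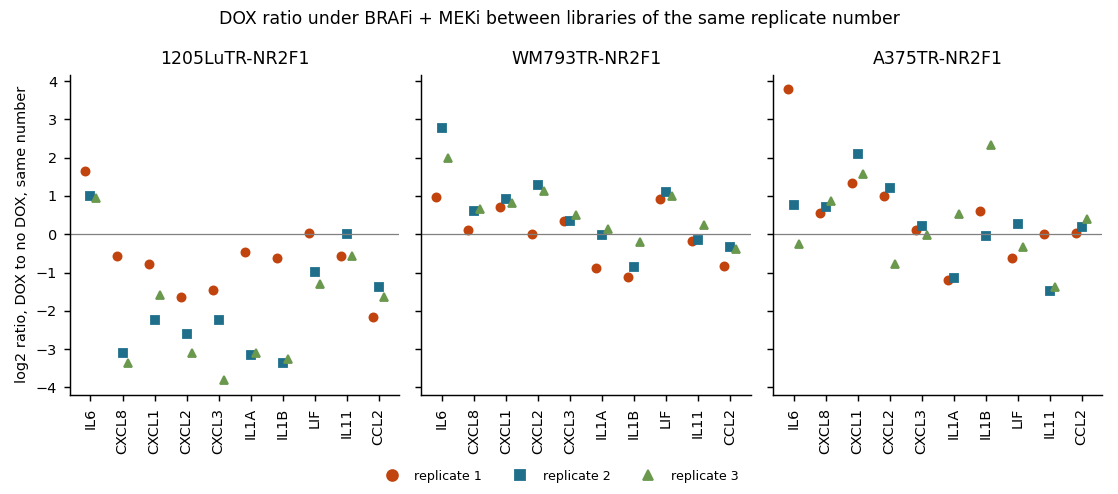
Log2 ratio of BRAFi + MEKi + DOX to BRAFi + MEKi between libraries of the same replicate number, for the 10 members in each line. Points are single ratios by replicate number and the grey line is no change; in 1205Lu, IL6 is above 0 in all 3 pairs while CXCL8, CXCL1, CXCL2, CXCL3, IL1A, IL1B and CCL2 are below it, with replicate 1 closest to 0 for all of these but CCL2.

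CCL2, the monocyte attractant MCP-1, was the member that rose most with the inhibitors in 1205Lu. It was 9990, 4347 and 3564 with DMSO and 50527, 39017 and 44409 with BRAFi + MEKi. In WM793 it was 1399, 4031 and 4801 against 27377, 32442 and 36816, and in A375 4482, 4200 and 2146 against 3882, 3657 and 3146. Every inhibitor-treated library of 1205Lu and WM793 was above the DMSO group, and the A375 groups overlapped. The rise was 8.27-fold in 1205Lu (log2 change 3.05, SE 0.40, adjusted p 7.6e-05) and 10.6-fold in WM793 (log2 change 3.41, SE 0.39, adjusted p 1.3e-05). In A375 the log2 change was 0.048, with a 95% interval of -0.53 to 0.63. The response of A375 differed from that of 1205Lu by 3.0 (SE 0.58, adjusted p 6.2e-04) and from that of WM793 by 3.36 (SE 0.58, adjusted p 6.9e-05).

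With BRAFi + MEKi + DOX, CCL2 was 11283, 14908 and 14118 in 1205Lu, below every BRAFi + MEKi library and still above every DMSO library. The log2 change was -1.73 (SE 0.40, adjusted p 0.089). It was called with the replicate block (adjusted p 0.019), without the libraries numbered 1 (-1.52, adjusted p 3.9e-04) and without replicate 1 of DMSO + DOX (adjusted p 0.038). In WM793, CCL2 was 15543, 25756 and 28139 with BRAFi + MEKi + DOX, lower than the same-numbered control in all 3 pairs, with overlapping groups and a log2 change of -0.51 (SE 0.39, adjusted p 0.81). The A375 libraries with BRAFi + MEKi + DOX were at 3943, 4156 and 4134, with a log2 change of 0.20 (SE 0.27). With DMSO + DOX the CCL2 changes were -0.11, -0.73 and -0.11 in 1205Lu, WM793 and A375, and none passed the test, although that in WM793 did without the libraries numbered 1 (-1.01, adjusted p 0.028).

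**Figure D4:**
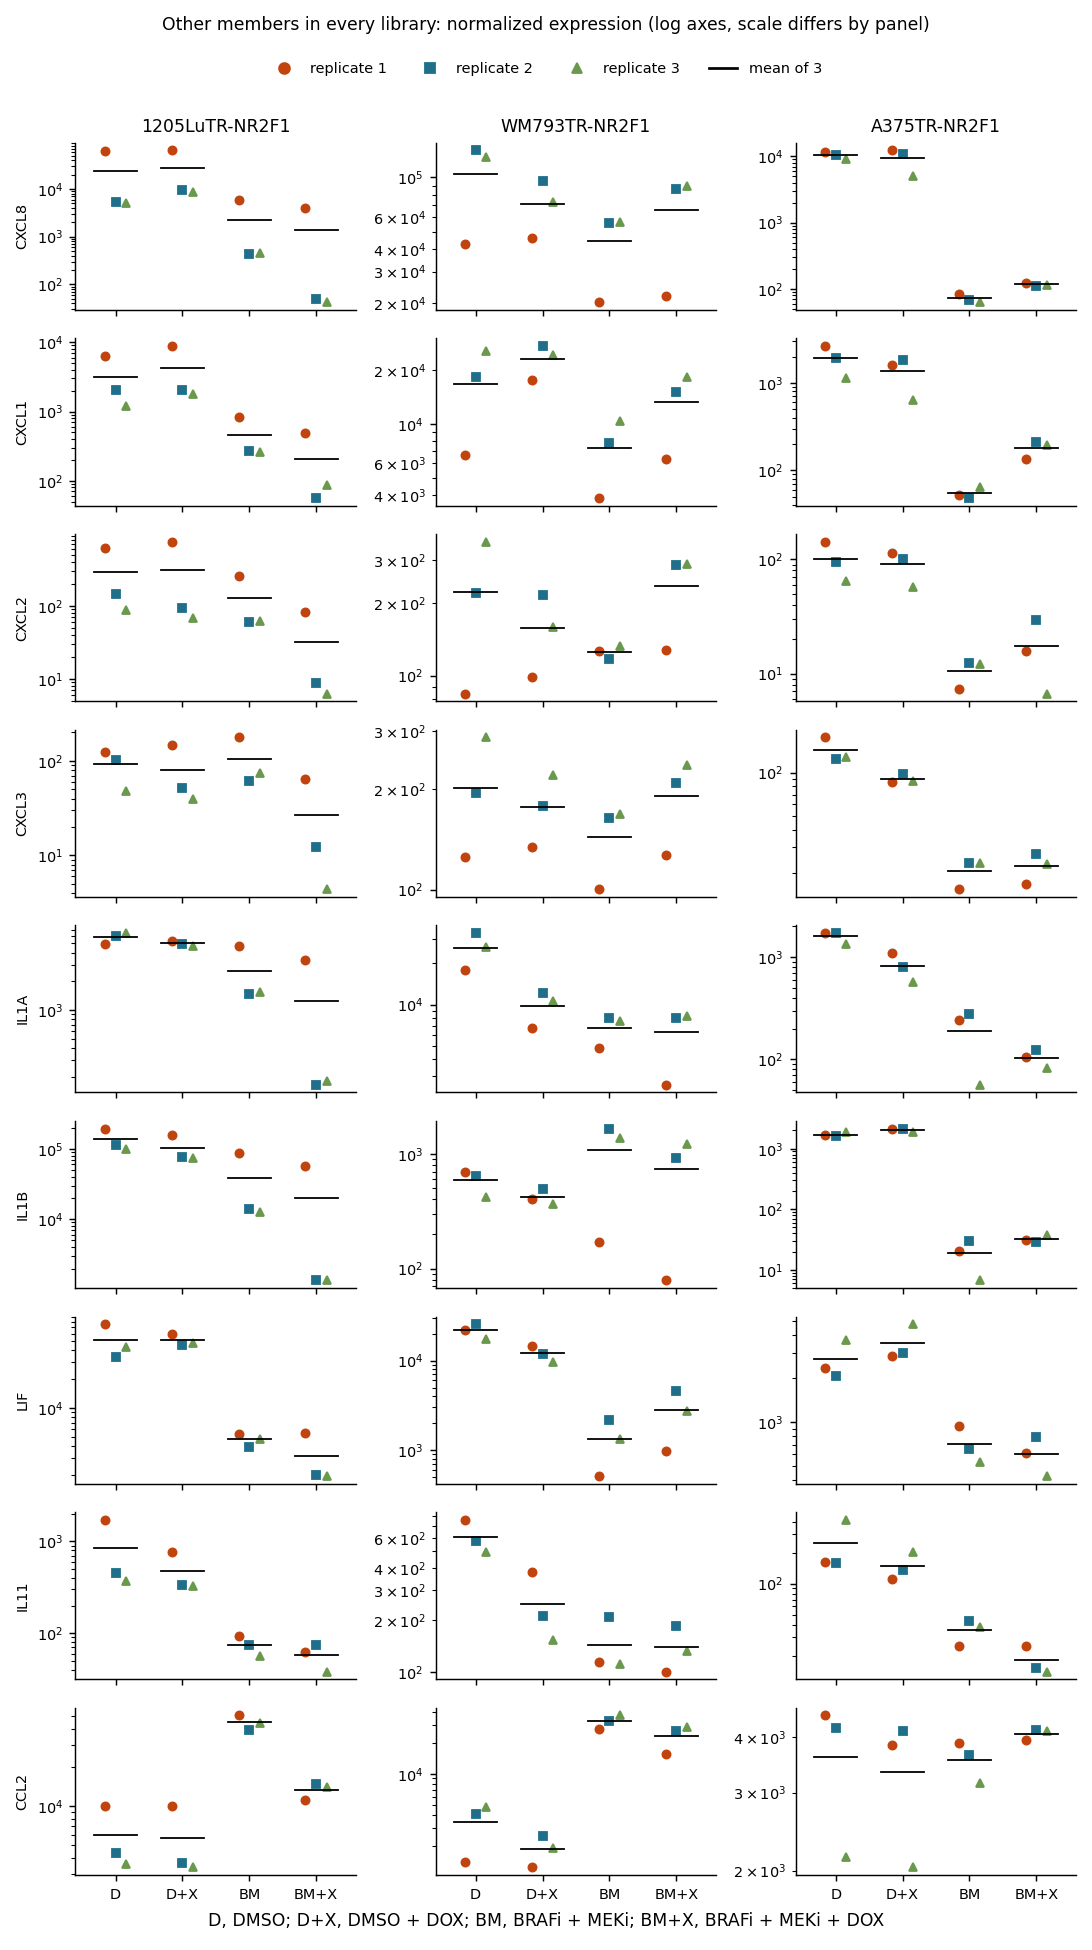
Normalized expression of the 9 members other than IL6 in each library, on log axes whose range differs between panels, with members in rows, lines in columns and treatments along the x axis. Points are libraries by replicate number and black lines are means of 3; LIF and IL11 are lower with BRAFi + MEKi in all 3 lines, CCL2 is higher in 1205Lu and WM793, and replicate 1 of 1205Lu is far above replicates 2 and 3 for CXCL8 in all 4 groups.

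The DMSO levels differed between lines for 3 of 10 members between 1205Lu and WM793 (30.7% of 26779 genes were called), for 5 of 10 between 1205Lu and A375 (46.8%) and for 6 of 10 between WM793 and A375 (47.5%). Beside IL1B, CXCL1 was lower in 1205Lu than in WM793 by 2.54 on the log2 scale (difference -2.54, SE 0.69, adjusted p 0.0045), and so was IL1A (-2.12, SE 0.69, adjusted p 0.019). IL6 was higher than in A375 by a log2 difference of 4.12 in 1205Lu (SE 0.66, adjusted p 5.2e-06) and 3.05 in WM793 (SE 0.66, adjusted p 3.0e-04). LIF was higher than in A375 by 4.20 and 3.03, IL1A by 1.87 and 3.99, and IL11 by 1.58 and 1.44, all called. CXCL8 and CXCL1 were higher in WM793 than in A375 by 3.16 and 3.01. CXCL2, CXCL3 and CCL2 did not differ at the threshold between any 2 lines in DMSO with all libraries. Without the libraries numbered 1, the IL11 calls were lost in 1205Lu (0.68, adjusted p 0.21) and WM793 (1.05, adjusted p 0.05). In that setting CXCL8 was called lower in 1205Lu than in A375 (difference -0.91, adjusted p 0.0027). Against WM793, CXCL8 (-4.71, adjusted p 8.9e-11) and CXCL3 (-1.74, adjusted p 0.0024) were then called lower in 1205Lu. CXCL2 was then higher (1.83, adjusted p 0.0059) and IL1B lower (-1.74, adjusted p 0.0021) in WM793 than in A375. The shares of all genes called in that setting were 28.2%, 43.3% and 42.6% in the order of the pairs above.

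The response to BRAFi + MEKi differed for 0 of 10 members between 1205Lu and WM793 (limma, 14.5% of all genes called, with 1 member and 25.8% of all genes at an unadjusted p below 0.05), for 3 between 1205Lu and A375 (14.7%) and for 7 between WM793 and A375 (22.8%). The difference in IL6 between 1205Lu and WM793 was -2.48 (SE 0.94, adjusted p 0.077). Without the libraries numbered 1, CXCL8 (-2.30, adjusted p 1.3e-04) and IL1B (-4.53, adjusted p 7.2e-05) differed between 1205Lu and WM793 (13.9% of all genes), and CXCL8 (3.63, adjusted p 2.5e-06) and CXCL1 (2.15, adjusted p 0.015) were added between 1205Lu and A375 (13.2%). The DOX effect under BRAFi + MEKi was called different for 0 of 10 members in each pair of lines by limma, where 0.138% (1205Lu and WM793), 0.179% (1205Lu and A375) and 0.881% (WM793 and A375) of all genes were called. At an unadjusted p below 0.05 there were 5, 5 and 0 members in these pairs, against 7.11%, 8.07% and 8.36% of all genes. For CXCL1 the difference between 1205Lu and A375 was -3.20 (SE 0.97, adjusted p 0.22), for CXCL2 between 1205Lu and WM793 -3.26 (SE 1.17, adjusted p 0.37) and for CXCL3 -2.90 (SE 0.81, adjusted p 0.16). With the replicate number as a block, CXCL8, CXCL1, CXCL2 and CXCL3 differed between 1205Lu and WM793 (adjusted p 0.025, 0.012, 0.0059 and 0.0059), where 0.609% of all genes were called. The same 4 genes and CCL2 differed between 1205Lu and A375 with the block (adjusted p 0.014, 8.8e-04, 0.01, 0.0094 and 0.029), against 0.635% of all genes. In A375 the numbers did not meet the rule for pairing over all genes tested (r 0.07, 0.05 and 0.17). Among genes with a mean of at least 30 they did (0.18, 0.16 and 0.33). Each of these differences between lines was negative, which means a lower log2 change in 1205Lu. Without the libraries numbered 1, 7 members differed between 1205Lu and each other line, against 1.06% of all genes for WM793 and 1.45% for A375.

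Levels of different genes can be set side by side only per length, and the following are DMSO means of normalized expression per kilobase of exon. The length is that of all annotated exons of a gene together, which is 4321 bases for IL6, 1362 for CXCL1 and 1398 for CXCL2. A gene whose transcripts use only part of these exons is placed too low, so the orders and overlaps depend on this length. In 1205Lu the order began with IL1B at 45246 ± 16956 (SD, 3 libraries), LIF at 13192 ± 5588, CXCL8 at 9183 ± 12436 and CCL2 at 3084 ± 1812. It ended with CXCL2 at 205 ± 212, IL6 at 58.9 ± 2.49 and CXCL3 at 41.4 ± 17.8. WM793 was led by CXCL8 at 40361 ± 20784, IL1A at 12830 ± 3834 and CXCL1 at 12314 ± 6975, and IL6 was last at 28 ± 3.39. In A375, CXCL8 led at 4004 ± 467, before CCL2 at 1865 ± 659 and CXCL1 at 1397 ± 548, and IL6 was again last at 4.52 ± 4.32. Neighbours in these orders did not overlap only between IL1B and LIF, CXCL1 and IL11, and CXCL2 and IL6 in 1205Lu, between LIF and CCL2, CCL2 and IL11, and CXCL3 and IL6 in WM793, and between CXCL8 and CCL2, IL1B and IL11, and CXCL3 and IL6 in A375. Under BRAFi + MEKi, CCL2 led in A375 (1841 ± 195 per kilobase) without overlap. In 1205Lu CCL2 (23075 ± 2976) and IL1B (12725 ± 14256) overlapped at the top, and in WM793 CXCL8 (17102 ± 8035) and CCL2 (16647 ± 2441) did. The overlap in 1205Lu rested on replicate 1 alone, where IL1B was at 29184 per kilobase. The lowest IL1B library was at 4275 and the lowest CCL2 library at 20164. IL6 was then at 112 ± 12.2 in 1205Lu, 298 ± 50.4 in WM793 and 1.13 ± 0.68 in A375.

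The genes around the members were read in lists, each by its counts and its median beside the median over all genes tested, given above for BRAFi + MEKi against DMSO. The shares of all genes to read these counts against are 30.9%, 37.3% and 39.5% in 1205Lu, WM793 and A375 for BRAFi + MEKi, and those at an unadjusted p below 0.05 with DOX under BRAFi + MEKi are 9.72%, 7.95% and 10.6%. Differences between lines in a list's count were not tested. Of the receptors for these cytokines, 4 rose and 1 fell with BRAFi + MEKi out of 10 tested in 1205Lu, 4 rose and 0 fell out of 10 in WM793, and 3 rose and 4 fell out of 11 in A375, with medians of 0.47, 0.56 and -0.19. IL11RA, the receptor chain for IL-11, rose in all 3 lines, by a log2 change of 2.07 (SE 0.27), 2.29 (SE 0.33) and 1.65 (SE 0.14). IL6R, the chain that binds IL-6, rose by 0.77 in A375 (SE 0.19, adjusted p 0.0049). Its calls in 1205Lu (0.62, SE 0.22, adjusted p 0.047) and WM793 (0.52, SE 0.19, adjusted p 0.043) were kept in 4 and 3 of the 12 fits with 1 library left out, and any one of the BRAFi + MEKi libraries or of DMSO replicates 2 and 3 ended them. In A375, IL1RL1, the receptor of IL-33, fell by 4.63 and IL1RAP, the shared chain of interleukin-1 receptors, fell by 1.78, as did OSMR, the oncostatin M receptor, by 1.19. For DOX under BRAFi + MEKi, limma called 0 receptors, and 0, 2 and 1 had an unadjusted p below 0.05 in 1205Lu, WM793 and A375.

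Of 10 JAK, STAT3 and SOCS genes, 3 rose and 1 fell with BRAFi + MEKi in 1205Lu, 5 rose and 1 fell in WM793, and 4 rose and 4 fell in A375, with medians of 0.34, 0.53 and -0.049. SOCS3, a STAT3 target that feeds back on gp130, was 120 ± 13.6 with DMSO and 373 ± 69.8 with BRAFi + MEKi in 1205Lu (log2 change 1.62, SE 0.25, adjusted p 2.8e-04). In WM793 it rose from 255 ± 26.0 to 739 ± 90 (1.53, SE 0.21, adjusted p 6.6e-05), and in A375 it fell from 981 ± 7.46 to 464 ± 136 (-1.12, SE 0.17, adjusted p 1.6e-04). SOCS3 thus rose in the lines where IL6 rose, and a link between them was not tested. STAT3 itself rose by 0.80 (SE 0.16) in 1205Lu and 0.91 (SE 0.099) in A375, and PIM1, a kinase gene induced by STAT3, fell by 1.49 (SE 0.28) in 1205Lu and fell by 3.75 (SE 0.47) in A375. JAK2 rose by 1.17 (SE 0.23) in WM793. With DOX under BRAFi + MEKi, where IL6 rose in 1205Lu and WM793, limma called 0 of the 10 in each line, and 1, 3 and 1 had an unadjusted p below 0.05 in 1205Lu, WM793 and A375. SOCS3 was then at 509 ± 145 in 1205Lu and at 395 ± 131 in WM793, on opposite sides of its level without DOX.

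Genes of interleukin-1 processing and antagonism had 1 higher and 2 lower of 10 tested in 1205Lu, 2 and 2 of 9 in WM793, and 5 and 2 of 10 in A375 with BRAFi + MEKi (medians 0.45, 0.32 and 0.35). IRAK4, a kinase of the interleukin-1 receptor complex, rose in all 3 lines by 1.22 (SE 0.23), 1.38 (SE 0.18) and 1.27 (SE 0.18), while its partner IRAK1 fell by 1.00 (SE 0.21) in 1205Lu and by 1.03 (SE 0.17) in WM793. In A375 the fall of IRAK1 was 0.27 (SE 0.091, adjusted p 0.032), and it was kept in 7 of 12 fits with 1 library left out, lost without any DMSO library or without replicate 1 or 2 of BRAFi + MEKi. CASP1, which cleaves the IL1B precursor, rose by 1.44 (SE 0.25) in A375, where IL18BP, the decoy of interleukin-18, rose by 1.52 (SE 0.21) and IL18 itself fell by 1.03 (SE 0.25).

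NF-kB subunits, inhibitors and feedback targets had 2 higher and 1 lower of 17 in 1205Lu, 3 and 2 in WM793, and 3 and 8 in A375 with BRAFi + MEKi (medians -0.13, 0.064 and -0.24). NFKBIA, the inhibitor IkB-alpha and itself an NF-kB target, rose by 0.90 (SE 0.24) in 1205Lu and 0.77 (SE 0.23) in WM793. These calls were lost without DMSO replicate 3 in 1205Lu (adjusted p 0.06) and, in WM793, without DMSO replicate 1 or replicate 2 or 3 of BRAFi + MEKi (adjusted p up to 0.074). TNFAIP3, the feedback inhibitor A20, fell by 1.53 (SE 0.32) in WM793 and by 1.70 (SE 0.27) in A375, where NFKB2 and ICAM1 also fell, by 1.38 and 1.12. BIRC3, an NF-kB target that limits cell death, was the one gene of this list called with DOX under BRAFi + MEKi. In 1205Lu under BRAFi + MEKi it fell with DOX from 2728 ± 932 to 755 ± 186 (log2 change -1.83, SE 0.31, adjusted p 0.028). The call stood in 6 of the fits that left out single libraries, 12 in all, and ended (adjusted p up to 0.12) without DMSO replicate 3, DMSO + DOX replicate 2, replicate 1 or 3 of BRAFi + MEKi, or replicate 2 or 3 of BRAFi + MEKi + DOX. In that comparison 15 of the 17 genes had a log2 change below 0 in 1205Lu (median -0.23 against -0.0092 over all genes) and 12 of 17 in A375 (median -0.17). In WM793, where IL6 also rose with DOX, 13 of the 17 were above 0 (median 0.25), and the difference between the lines was not tested. By limma, 5, 0 and 2 of the 17 had an unadjusted p below 0.05 in 1205Lu, WM793 and A375.

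Of 12 AP-1 and C/EBP factors, 2 rose and 2 fell with BRAFi + MEKi in 1205Lu, 4 rose and 2 fell in WM793, and 2 rose and 7 fell in A375, with medians of -0.42, 0.52 and -0.94. FOSL1, an AP-1 subunit stabilized by ERK, fell by 2.77 (SE 0.34) in 1205Lu and fell by 5.36 (SE 0.19) in A375. JUN rose by 4.0 (SE 0.47) in WM793 and 4.25 (SE 0.32) in A375, and ATF3, a stress-induced factor, rose in all 3 lines by 1.5, 2.49 and 2.36. CEBPD, a C/EBP factor downstream of STAT3, rose by 1.27 (SE 0.34) in 1205Lu and 2.21 (SE 0.51) in WM793 and fell by 2.05 (SE 0.44) in A375. Without replicate 2 of BRAFi + MEKi, the CEBPD call in 1205Lu ended (adjusted p 0.051). For DOX under BRAFi + MEKi, limma called 0 of the 12 factors in each line, with 3, 1 and 1 at an unadjusted p below 0.05 in 1205Lu, WM793 and A375. The ERK output genes, which all had a log2 change below 0 with BRAFi + MEKi in 1205Lu and WM793 (medians -3.21 and -1.77), had a log2 change below 0 with DOX under BRAFi + MEKi for 9 of 10 genes in 1205Lu (median -0.66). The exception was DUSP6, at 0.79 (SE 0.68). In WM793, 7 of the 10 were above 0 (median 0.26), and in A375 6 were (median 0.021). Limma called 0 of these 10 in each line, 5, 3 and 0 had an unadjusted p below 0.05 in 1205Lu, WM793 and A375, and their part in the member changes was not tested.

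Of 8 regulators of cytokine mRNA decay, 1 rose and 2 fell with BRAFi + MEKi in 1205Lu, 0 rose and 5 fell in WM793, and 0 rose and 5 fell in A375, with medians of -0.49, -0.53 and -0.47. KHSRP, which binds AU-rich elements, fell in the 3 lines, with log2 changes of -0.64, -0.62 and -0.85. In the comparison of DOX under BRAFi + MEKi, ZC3H12A, the ribonuclease Regnase-1 that cleaves IL6 mRNA, fell in 1205Lu from 712 ± 49.5 to 324 ± 43.0 (log2 change -1.14, SE 0.21, adjusted p 0.035). That call was kept in 3 of 12 fits, those without replicate 1 of DMSO, DMSO + DOX or BRAFi + MEKi + DOX, and lost without any other library (adjusted p up to 0.2). Among endothelial markers, KDR was higher in that comparison, from 18.8 ± 3.23 to 116 ± 69.4 (log2 change 2.39, SE 0.45, adjusted p 0.045), a call kept in 1 of 12 fits, that without BRAFi + MEKi + DOX replicate 1, and lost without any other library. The summed level of the 6 endothelial markers was 64.9 to 101 without DOX and 137 to 227 with it, and CDH5, which defines endothelial cells, was at 0 in every 1205Lu library.

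Among the other secretory phenotype factors, 3 rose and 12 fell with BRAFi + MEKi of 29 tested in 1205Lu, 7 rose and 10 fell of 31 in WM793, and 2 rose and 22 fell of 32 in A375. Their medians were -0.73, -0.12 and -1.90. GDF15, a stress cytokine, fell in all 3 lines, with log2 changes of -4.42 (SE 1.02), -2.77 (SE 0.44) and -3.75 (SE 0.45). STC1 fell by 6.04 (SE 0.79) in WM793 and CSF2, encoding GM-CSF, fell by 6.43 (SE 0.49) in A375. IGFBP5, a binding protein of insulin-like growth factors, rose by 4.90 (SE 0.55) in WM793, where IL24, a cytokine of the interleukin-10 family, fell by 5.91 (SE 0.98). In A375, FGF7 rose by 4.94 (SE 0.80) and the EGFR ligand AREG fell by 4.89 (SE 0.47). Of the other chemokines, 3 rose and 3 fell in 1205Lu out of 11 tested, 1 rose and 4 fell in WM793 out of 11, and 1 rose and 1 fell in A375 out of 9, with medians of -0.35, -1.03 and -1.42. CX3CL1, the membrane-bound chemokine fractalkine, fell in all 3 lines, with log2 changes of -1.53 (SE 0.23), -1.03 (SE 0.18) and -5.07 (SE 0.70). CCL20 fell by 6.60 (SE 0.76) in 1205Lu and fell by 4.73 (SE 0.72) in WM793, and CXCL12, the ligand of CXCR4, rose by 5.16 (SE 0.79) and 2.09 (SE 0.19). With DOX under BRAFi + MEKi, IGFBP3 rose by 0.94 in A375 (SE 0.22, adjusted p 0.049), and no other gene of the secretory list was called in any line, while 6, 7 and 9 had an unadjusted p below 0.05 in 1205Lu, WM793 and A375. The IGFBP3 call was kept in 5 of 12 fits and lost, at adjusted p of up to 0.27, without DMSO replicate 2, DMSO + DOX replicate 1, replicate 1 or 2 of BRAFi + MEKi, or any BRAFi + MEKi + DOX library. Of the other chemokines, CCL8 was called with DOX under BRAFi + MEKi in 1205Lu (adjusted p 0.033), at 3.31 to 21.4 in the BRAFi + MEKi libraries and listed at 0 in the 9 others. That call was kept in 4 of 12 fits and lost, at adjusted p of up to 0.15, without replicate 2 or 3 of DMSO, DMSO + DOX or BRAFi + MEKi + DOX, or replicate 1 or 3 of BRAFi + MEKi. In WM793 and A375 limma called 0 of the other chemokines with DOX under BRAFi + MEKi, and 3, 2 and 4 had an unadjusted p below 0.05 in 1205Lu, WM793 and A375.

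The genes whose pattern was most like that of IL6 were ranked by Pearson's r of log2 values over the 36 libraries, after the mean of each line had been subtracted, among 14670 other genes with a mean of at least 30. The 10 nearest were EIF2AK2 (0.80), NBPF3 (0.80), RAB11FIP1 (0.76), AKTIP (0.76), IL32 (0.75), APOL2 (0.74), CCN1 (0.74), FBXL5 (0.74), LATS2 (0.73) and BST1 (0.73). In WM793 alone their r was between 0.86 and 0.93, but in 1205Lu it lay between -0.07 and 0.71 and in A375 between 0.22 and 0.82, so that the likeness was closest in WM793. The libraries of a group share their treatment and are not independent points. Of the other members, CCL2 was nearest at 0.46 (rank 947), CXCL2 was at 0.14, CXCL1 at 0.10, CXCL8 and IL1B at 0.07 and CXCL3 at 0.01. IL1A, IL11 and LIF were at -0.17, -0.27 and -0.34. Within single lines of 12 libraries, CCL2 was at 0.72 in WM793, 0.56 in A375 and -0.08 in 1205Lu, and CXCL2 was at 0.55 in A375. IL11, IL1A and LIF ran against IL6 in WM793, at -0.82, -0.74 and -0.71, while in 1205Lu the r of the members lay between -0.29 and -0.06.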

How the data were processed

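RNA-Seq of 36 libraries from 3 melanoma lines was measured. The authors aligned reads to GRCh38 with STAR, estimated counts per gene with RSEM and deposited values normalized with DESeq2. The deposited values are a normalized signal per gene, not whole reads. Here log2(value + 1) was fitted with limma 3.58.1 (limma-trend, in R 4.3.3) to the 12 libraries of a line, or to all 36 for differences between lines, keeping genes whose mean reached 1 in any group. p-values were adjusted by Benjamini-Hochberg over all genes tested, with a threshold of 0.05. They measure the spread between replicates, which the paper's methods call independent experiments. Symbols came from GENCODE 44. Members and lists were chosen with earlier results of these data known; all members were named and, per list and comparison, at most 4 called genes with the largest changes and a mean of at least 30. CCL8, and IL6R, IRAK1 and GDF15 in A375, were named after their values were seen. Under BRAFi + MEKi, the deviations of same-numbered libraries with and without DOX, over all genes tested, correlated at 0.27, 0.11 and 0.11 in 1205Lu and 0.25, 0.18 and 0.11 in WM793, so the numbers were taken to pair these libraries and the blocked value is given where it changes a call. The fits were tested on simulated data. Other settings were another pseudocount (0.1), no filter, a minimum of 10, the replicate block, equal totals, array weights, only the libraries compared, and each library left out.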

Additional observations from a re-analysis of the deposited data

Results flagged for a closer look

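For 10 results, the response of a member to BRAFi + MEKi differed between A375 and another line by limma's test of the difference itself, over all 36 libraries. Positive values mean that the log2 change was higher in the line named first. Between 1205Lu and A375 the differences were 2.88 for CXCL3, 4.27 for IL1B and 3.0 for CCL2. Of the 36 fits with 1 library left out, CXCL3 kept its call in 35, IL1B in 28 and CCL2 in 36. Between WM793 and A375 the differences were 4.84 for IL6, 5.96 for CXCL8, 3.93 for CXCL1, 2.30 for CXCL3, 7.0 for IL1B, -2.31 for LIF and 3.36 for CCL2. Of these, CXCL3 kept its call in 27 of 36 such fits and the others in all 36. Medium and line cannot be told apart in any of these differences. A test for outlying libraries was not run, since each group has 3.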

How the results depend on the processing

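Values could not be turned back into whole reads, so count tests with edgeR or DESeq2 were not run. A replicate block could not be used for DMSO levels between lines, because the numbers belong to separate experiments there. The settings that leave out all libraries of a number were added after the data had been seen. The cause of the changes below was not tested.

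IL6 with DOX under BRAFi + MEKi in 1205Lu kept its direction but was no longer called with only the libraries compared (1.19, adjusted p 0.12) or with the libraries numbered 2 (1.29, adjusted p 0.44) or 3 (1.32, adjusted p 0.79) left out. In WM793 the same held with a pseudocount of 0.1 (1.91, adjusted p 0.056), with no filter (1.91, adjusted p 0.053), with only the libraries compared (1.91, adjusted p 0.075) and without number 2 (1.48) or 3 (1.87). Leaving out single libraries gave 1.04 to 1.30 in 1205Lu, 1.57 to 2.25 in WM793 and 0.64 to 2.26 in A375.

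Counts of members called that moved by more than 1.5 times are given first for the lines and then between lines, and smaller moves are left out. With DOX under BRAFi + MEKi, the 1 of 1205Lu became 5 with the replicate block, 7 with array weights, 9 without number 1 and 0 without number 2 or 3. The 1 of WM793 became 0 with a pseudocount of 0.1, no filter, only the libraries compared, or number 2 or 3 left out. The 1 of A375 became 2 with array weights or without number 3 and 0 without number 1 or 2. With DOX in DMSO, 1 became 0 in 1205Lu and WM793 without number 2 or 3, and in WM793 it became 2 with the block and 3 with array weights or without number 1. In WM793 the share of all genes called went from 0.512% to 1.29% with the block, 1.9% with array weights and 0.671% without number 1. Without number 2 or 3 that share was 0% in 1205Lu, and 0.00452% and 0.00897% in WM793. For BRAFi + MEKi against DMSO, the 5 of 1205Lu became 8 with the block, array weights, only the libraries compared or number 1 left out, and 3 without number 2 or 3, and the 5 of WM793 became 9 without number 1. The difference of the DOX effects went from 0 to 1 with array weights and 7 without number 1 in 1205Lu, and to 1 with array weights or without number 3 in A375. For it the share of all genes went from 0% to 0.0903% with array weights and 0.982% without number 1 in 1205Lu. In A375 that share went from 0.46% to 0.968% with array weights and 0.952% without number 3. The share of all genes called moved in many, but not all, of these settings. For BRAFi + MEKi in 1205Lu it was 30.9% in the main fit, 36% with array weights and 31.2% with only the libraries compared. In WM793 it was 37.3% in the main fit and 37.7% without number 1. For DOX under BRAFi + MEKi in 1205Lu it went from 0.334% to 1.64% with the block, 6.23% with array weights, 6.47% without number 1, 0% without number 2 and 0.00445% without number 3. In WM793 it went from 0.204% to 0.0906% with only the libraries compared, 0% without number 2 and 0.00897% without number 3, and in A375 from 1.52% to 4.25% with array weights and 0.386%, 0.353% and 2.98% without number 1, 2 and 3.

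Between lines, the response to BRAFi + MEKi went from 3 to 7 with the block or array weights, 5 without number 1 and 0 without number 2 (1205Lu and A375), from 0 to 3 with the block, 1 with array weights and 2 without number 1 (1205Lu and WM793), and from 7 to 4 without number 2 or 3 (WM793 and A375). The DOX effect went from 0 to 5 with the block or array weights and 7 without number 1 (1205Lu and A375), and from 0 to 4, 6 and 7 with these settings (1205Lu and WM793). DMSO levels went from 5 to 3 without number 2 (1205Lu and A375), and from 3 to 5 with a minimum of 10 or without number 1, 6 with array weights and 1 without number 2 (1205Lu and WM793). For these levels the share of all genes called went from 46.8% to 35.8% without number 2 (1205Lu and A375). Between 1205Lu and WM793 it went from 30.7% to 42.9% with a minimum of 10, 28.2% without number 1, 34.5% with array weights and 20.2% without number 2. The share of all genes called for the response between 1205Lu and A375 went from 14.7% to 18.8% with the block, 21.2% with array weights, 13.2% without number 1 and 3.75% without number 2. For the response between WM793 and A375 it went from 22.8% to 10.4% and 13.6% without number 2 and 3. For that between 1205Lu and WM793 it went from 14.5% to 18.4% with the block, 19.4% with array weights and 13.9% without number 1. For the DOX effect it went from 0.179% to 0.635%, 2.93% and 1.45% with the block, array weights and number 1 left out (1205Lu and A375), and from 0.138% to 0.609%, 3.13% and 1.06% (1205Lu and WM793). CXCL8 in DMSO turned from 0.19 (1205Lu over A375) to -0.91 without number 1.

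With single libraries left out, counts lay between 0 and 5, 0 and 1, and 0 and 2 for DOX under BRAFi + MEKi in 1205Lu, WM793 and A375, and between 4 and 8, 5 and 8, and 8 and 8 for BRAFi + MEKi. With DOX in DMSO they were 1 to 1, 1 to 2 and 0 to 0, and for the difference of the DOX effects 0 to 1, 0 to 0 and 0 to 0. Between lines they were 1 to 5, 0 to 1 and 6 to 7 for the response to BRAFi + MEKi, 0 to 5, 0 to 4 and 0 to 0 for the DOX effect, and 4 to 5, 2 to 6 and 4 to 6 for DMSO levels, in the order 1205Lu and A375, 1205Lu and WM793, WM793 and A375. Over all genes tested, same-numbered deviations had an r above 0.1 in every pair in no other comparison. When only genes whose mean reached 30 were used, they did so also with DOX in DMSO in each line, with DOX under BRAFi + MEKi in A375 and with BRAFi + MEKi in 1205Lu. Each count that the block moved in these comparisons is given above.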
